A study of Mus musculus with 24 samples.

Results

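The interleukin-1 family is a set of cytokines, inhibitors and receptors that carry early inflammatory signals in skin. RNA levels of 10 of its genes were followed in unwounded skin and in day 3 wounds of mouse abdomen, back and cheek. The genes were the agonists Il1a and Il1b, the antagonist Il1rn, the signalling receptor Il1r1, the decoy receptor Il1r2, the cytokines Il18 and Il33, and the IL-36 cytokines Il36a, Il36b and Il36g. They were chosen by symbol out of the 18368 genes of the deposited expression table, which lists the last 3 under their older symbols Il1f6, Il1f8 and Il1f9. All 10 were found, and all 10 passed the filter on low values that left 14423 genes for the comparison of wounds with unwounded skin.

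Skin came from 12 mice of the outbred stock CD1, aged 7 weeks with hair coats coordinated in telogen, and each mouse was used for a single site, so that there were 4 mice each for abdomen, back and cheek. A mouse received full-thickness punch wounds of 2 mm, a single wound in the cheek and a pair in the abdomen or back. At day 3 the wound and healthy skin beside it were taken with a 2 mm punch, which gave 6 groups of 4 libraries and 24 libraries in all. The unwounded libraries thus came from shaved animals that also carried a wound, and skin from mice without a wound was not part of the comparison. Each punch held whole tissue, frozen at harvest, with epidermis, hair follicles, dermis, fat, blood cells and in places muscle. Because such tissue was measured in bulk, a change in the number of cells of a type and a change in RNA per cell cannot be told apart.

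In this family, IL-1α and IL-1β bind the receptor encoded by Il1r1, which pairs with the accessory chain encoded by Il1rap and signals through the adaptor MyD88 to NF-kappaB. The antagonist encoded by Il1rn occupies that receptor without starting a signal, and the receptor encoded by Il1r2 captures IL-1 but lacks the intracellular signalling domain. IL-1β and IL-18 are made as precursors that caspase-1 cuts within inflammasomes, IL-33 is a nuclear protein set free by damaged barrier and stromal cells, and the IL-36 cytokines are mostly made by keratinocytes. The libraries measured RNA, and neither protein, cleavage nor release.

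The genes lie in a few clusters of the mouse genome (GRCm38). Il1b spans chr2:129364569-129371164 and Il1a chr2:129299609-129310186, both on the minus strand. Il36b (chr2:24153172-24160103), Il36g (chr2:24186476-24193567), Il36a (chr2:24215417-24225701) and Il1rn (chr2:24336860-24351491) sit in a second group on the same chromosome. The receptors Il1r2 (chr1:40084692-40125230) and Il1r1 (chr1:40222480-40316201) are neighbours on the plus strand. Il18 lies apart at chr9:50554700-50581841 and Il33 at chr19:29925113-29960718. An exon of the plus-strand transcript Gm14023 shares 222 bases with exons of Il1a, and the antisense gene Il1bos shares 25 bases with exons of Il1b. Neither of these genes is in the expression table, and whether strand was used in counting is not given in the sources used here.

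The 250 bases before a start site are shown for 5 members, because Il1b, Il1rn and Il33 rose in wounds at every site, Il1a, the neighbour of Il1b, changed little, and Il1r2 fell. Sequences are from RefSeq (GRCm38.p6), written 5′ to 3′ on the strand of the gene and ending at the base before the start. Capitals mark matches to TATAAA (searched on the gene's strand), to the AP-1 motif TGANTCA, to the C/EBP motif TTGCNNAA or to the NF-kappaB motif (these searched on both strands), and no 2 matches overlap.
Il1b, chr2:129371140-129371389, minus strand: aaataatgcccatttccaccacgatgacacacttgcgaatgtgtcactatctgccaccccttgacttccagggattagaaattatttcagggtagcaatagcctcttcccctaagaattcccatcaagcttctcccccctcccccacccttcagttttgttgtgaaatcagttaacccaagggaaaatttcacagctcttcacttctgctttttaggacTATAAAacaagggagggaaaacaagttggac
Il1a, chr2:129309973-129310222, minus strand: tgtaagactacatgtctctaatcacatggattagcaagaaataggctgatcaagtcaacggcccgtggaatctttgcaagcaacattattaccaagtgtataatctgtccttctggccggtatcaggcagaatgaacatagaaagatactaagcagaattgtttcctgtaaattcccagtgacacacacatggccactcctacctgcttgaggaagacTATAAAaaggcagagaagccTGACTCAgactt
Il1rn, start site 1, chr2:24336610-24336859, plus strand: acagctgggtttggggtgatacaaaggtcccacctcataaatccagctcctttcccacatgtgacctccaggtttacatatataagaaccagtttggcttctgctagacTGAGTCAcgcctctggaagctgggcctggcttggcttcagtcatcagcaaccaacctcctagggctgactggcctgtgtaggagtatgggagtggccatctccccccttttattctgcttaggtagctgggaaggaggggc
Il33, start site 2, chr19:29945540-29945789, plus strand: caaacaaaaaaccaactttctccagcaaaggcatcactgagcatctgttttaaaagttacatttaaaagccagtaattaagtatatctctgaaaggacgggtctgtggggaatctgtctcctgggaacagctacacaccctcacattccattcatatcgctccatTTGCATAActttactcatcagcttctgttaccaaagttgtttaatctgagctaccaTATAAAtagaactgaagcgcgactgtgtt
Il1r2, chr1:40085843-40086092, plus strand: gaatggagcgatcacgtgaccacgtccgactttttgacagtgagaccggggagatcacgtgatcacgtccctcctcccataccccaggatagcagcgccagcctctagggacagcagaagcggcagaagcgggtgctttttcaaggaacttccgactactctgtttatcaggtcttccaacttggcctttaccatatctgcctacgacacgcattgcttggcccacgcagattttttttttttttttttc

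Il1b held TATAAA from position -31 to -26 before its start, and Il1a held it from -32 to -27 together with an AP-1 match from -12 to -6. The first start site of Il1rn had an AP-1 match from -141 to -135, and the second start site of Il33 had a C/EBP match from -85 to -78 and TATAAA from -29 to -24. No match was present in the Il1r2 window, nor at start sites 2 and 3 of Il1rn, and at start site 1 of Il33 there was only TATAAA, from -203 to -198. Among 32807 mouse promoter windows of this length, 7.6% held TATAAA, 6.75% the AP-1 motif, 9.57% the C/EBP motif and 7.25% the NF-kappaB motif. These matches describe the sequences and are not binding sites that were measured. Promoter windows were at hand for 9 of the 10 members, all but Il36a. Among the members not shown, Il1r1 had a C/EBP match from -133 to -126 at start site 1. Its start site 2 had an NF-kappaB match from -232 to -223. Il36b had an AP-1 match from -236 to -230, and the windows of Il18 and Il36g held no match.

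Values are FPKM, fragment numbers divided by transcript length and by the size of the library, so that levels can be set side by side between genes. In unwounded skin the decoy receptor Il1r2 stood first with a mean of 123 ± 42.3 FPKM (SD, n = 12), and its libraries did not overlap with those of any other member. Il18 followed with a mean level of 40.2 FPKM, then Il36g with 32.4, Il1rn with 24.7, Il33 with 18.5, Il1r1 with 13.1, Il36b with 13.04, Il36a with 7.38 and Il1a with 6.25 FPKM. The agonist Il1b was last at 1.84 ± 1.15 FPKM and lay below Il1a in 12 of 12 libraries. From Il18 down, the ranges of neighbours in this order overlapped, and Il36a exceeded Il1a in only 6 of 12 libraries. In the wounds Il1b came first, with a mean level of 191 ± 95.2 FPKM (SD, n = 12), ahead of Il33 with 111, Il1r2 with 76.9, Il36g with 66.0, Il1rn with 63.9, Il18 with 49.9, Il36b with 30.02, Il1r1 with 18.6, Il36a with 17.3 and Il1a with 9.23 FPKM. Neighbouring ranges overlapped throughout the wound order, and Il1b was above Il33 in 9 of 12 wounds.

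**Figure D1:**
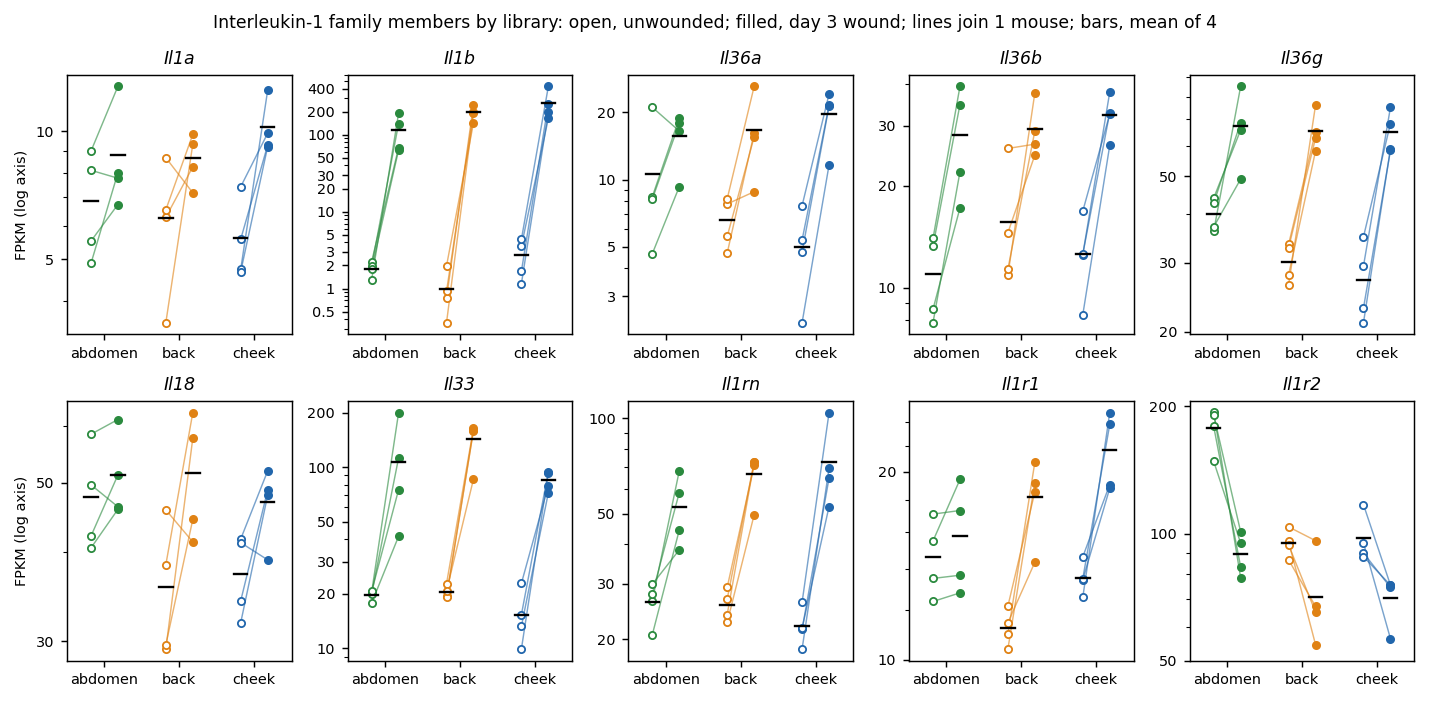
Level of each of the 10 family genes in every library, in FPKM on a log axis, for abdomen, back and cheek. Open points are unwounded skin, filled points are day 3 wounds, a line joins the 2 libraries of 1 mouse and a bar is the mean of 4. Il1b rises in all 12 mice from 4.38 FPKM or less to 63.5 FPKM or more, whereas Il1r2 falls in all 12.

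Wounding changed 4 of the 10 members in the abdomen, 5 in the back and 7 in the cheek. Each wound was compared with the unwounded skin of the same mouse by limma on log2(FPKM + 0.5), with p-values adjusted by the Benjamini-Hochberg method over all 14423 tested genes and a threshold of 0.001. Of the 10 members, 3 rose in the abdomen (Il1b, Il1rn and Il33) and 1 fell (Il1r2), where 3.92% of all tested genes rose and 1.04% fell. In the back 5 rose (Il1b, Il1rn, Il33, Il36g and Il1r1) and 0 fell, where 10% of all tested genes rose and 4.37% fell. In the cheek 7 rose (the same 5 with Il36a and Il36b) and 0 fell, where 6.5% rose and 2.19% fell. The median log2 fold change of the members was 0.71 in the abdomen, 1.03 in the back and 1.31 in the cheek, where the median of all tested genes was -0.01, 0.07 and 0.01. Il1b, Il1rn, Il33 and Il36g were higher in each of the 12 wounds than in any of the 12 unwounded libraries, a separation seen for 5.57% of all tested genes. Il1b, Il1rn, Il33, Il36b, Il36g and Il1r1 were higher in the wound of 12 of 12 mice, as were 14.4% of all tested genes.

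The counts in the abdomen and cheek fell whichever mouse of the site was left out, in fits that rest on fewer libraries. In the abdomen the number of members called was 1 without mouse 1, 2 without mouse 2, 1 without mouse 3 and 3 without mouse 4, compared with 4 with all mice. In the cheek it was 4 without mouse 1, 3 without mouse 2, 3 without mouse 3 and 4 without mouse 4, compared with 7. In the mean of the 3 site effects, a summary added after the data had been seen, 7 members rose and 1 fell, where 19.1% of all tested genes rose and 14.4% fell, and Il1a and Il18 were the members not called. Without back mouse 1 both of these were called as well, with mean effects of 0.63 (limma adjusted p = 0.000297) and 0.40 (limma adjusted p = 0.000342).

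**Figure D2:**
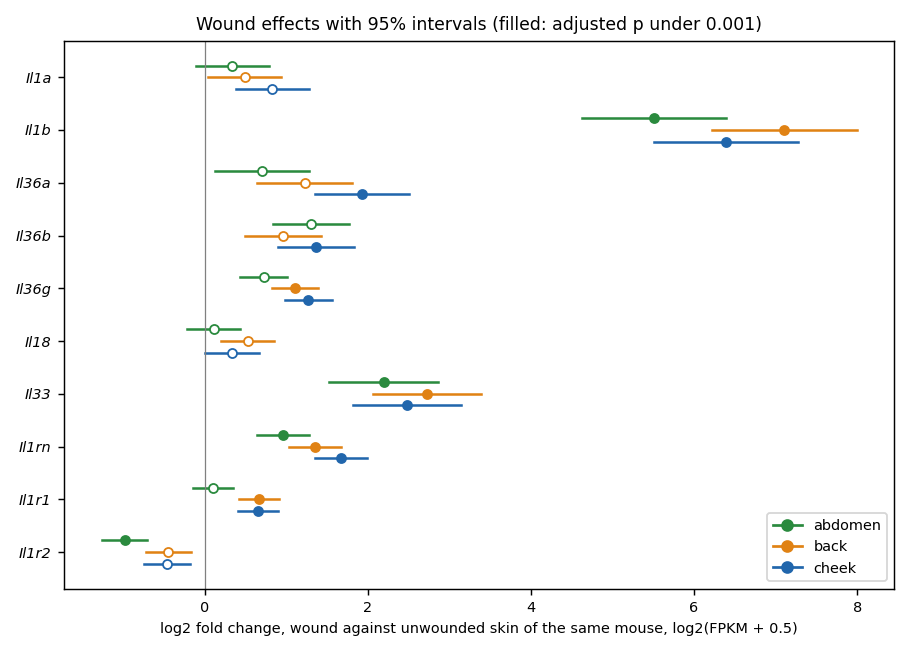
Wound effect of each member at each site as a log2 fold change of log2(FPKM + 0.5), wound against unwounded skin of the same mouse, with 95% intervals from limma over 24 libraries. Filled points passed an adjusted p of 0.001. Il1b lies between 5.51 and 7.11 at the 3 sites, Il33 between 2.19 and 2.72, and Il1r2 is the only member below 0.

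Il1b, which encodes the main secreted IL-1 agonist of myeloid cells, had the largest change in the family. In the abdomen it read 1.3, 2.23, 1.95 and 1.8 FPKM in unwounded skin of mice 1 to 4 and 190.5, 68.2, 140.2 and 63.5 FPKM in their wounds. In the back it read 0.75, 1.97, 0.92 and 0.36 FPKM in unwounded skin and 245, 144, 199.9 and 192 FPKM in the wounds. In the cheek the unwounded values were 3.58, 1.68, 4.38 and 1.16 FPKM and the wound values 164, 255, 427 and 198 FPKM. The lowest wound, of abdomen mouse 4, was still far above the highest unwounded library, of cheek mouse 3. Its log2 fold change was 5.51 ± 0.40 (SE) in the abdomen, 7.11 ± 0.40 in the back and 6.39 ± 0.40 in the cheek, with limma adjusted p = 1.1e-05, 8.5e-07 and 1.9e-06. These fold changes are on the log2(FPKM + 0.5) scale and understate the rise, since a back library was below the added 0.5 FPKM before wounding. Among the wounds, Il1b in the cheek exceeded that in the abdomen by 1.23 on the log2 scale (95% interval 0.39 to 2.07), which missed the threshold (limma adjusted p = 0.060).

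Il1a, the agonist that keratinocytes hold ready in the cytoplasm, changed far less. Its unwounded values ranged from 3.55 to 8.98 FPKM (median of each site between 5.16 and 6.81) and its wound values from 6.73 to 12.8 FPKM. It was higher in the wound of 10 of 12 mice, and lower in abdomen mouse 2 (8.10 to 7.76 FPKM) and back mouse 1 (8.67 to 7.17 FPKM). The cheek was the site where wound and unwounded libraries did not overlap, with 4.74, 4.68, 7.41 and 5.58 FPKM before and 12.5, 9.21, 9.90 and 9.28 FPKM after wounding. Its log2 fold change was 0.34 ± 0.21 in the abdomen, 0.49 ± 0.21 in the back and 0.82 ± 0.21 in the cheek (SE), with limma adjusted p = 0.23, 0.070 and 0.0080, none under 0.001.

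Il1rn encodes the IL-1 receptor antagonist. In the abdomen its level was 26.6, 29.9, 27.9 and 20.7 FPKM in unwounded skin and 68.3, 38.4, 58.3 and 44.4 FPKM in the wounds of mice 1 to 4. In the back it was 26.9, 22.7, 24.0 and 29.3 FPKM before and 73.0, 49.6, 72.6 and 71.2 FPKM after wounding. In the cheek it was 21.6, 18.7, 26.3 and 21.7 FPKM before and 64.7, 69.5, 104 and 52.7 FPKM after. Every wound was above every unwounded library, and the unwounded sites differed little. Wounding changed Il1rn on the log2 scale by 0.96 ± 0.15 in the abdomen, 1.35 ± 0.15 in the back and 1.67 ± 0.15 in the cheek (SE), with limma adjusted p = 0.00053, 2.0e-05 and 4.7e-06. The abdomen call was lost without abdomen mouse 1, 3 or 4 and without back mouse 1 or 4, with adjusted p between 0.00105 and 0.00428 in those fits, and the effect stayed between 0.83 and 1.16 over all fits with a mouse left out.

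The antagonist and the agonist changed places in the order of levels. The ratio of Il1rn to Il1b, taken within a library on FPKM, lay between 5.99 and 81.3 in unwounded skin (median 13.9) and between 0.244 and 0.699 in wounds (median 0.361). It was over 1 in every unwounded library and under 1 in every wound. Changes of its log2 were taken with 0.5 FPKM added to both genes, which makes them smaller than those of the plain ratio where Il1b was low. Their mean within a mouse was -5.01 ± 0.89 (SD, n = 12), with a fall in 12 of 12 mice (exact two-sided permutation by sign changes, p = 0.000488, the smallest that 12 pairs allow). The fall was -4.55 in the abdomen, -5.76 in the back and -4.73 in the cheek, where 4 mice allow no exact p below 0.125. Over the same mice the ratio of Il1b to Il1a rose from a median of 0.301 (range 0.0550 to 0.755) to 18.5 (range 8.79 to 43.1). With the same 0.5 FPKM added, its mean log2 change was 5.79 ± 1.19 (SD, n = 12, exact permutation p = 0.000488). A ratio of RNA levels is not a ratio of active proteins.

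**Figure D3:**
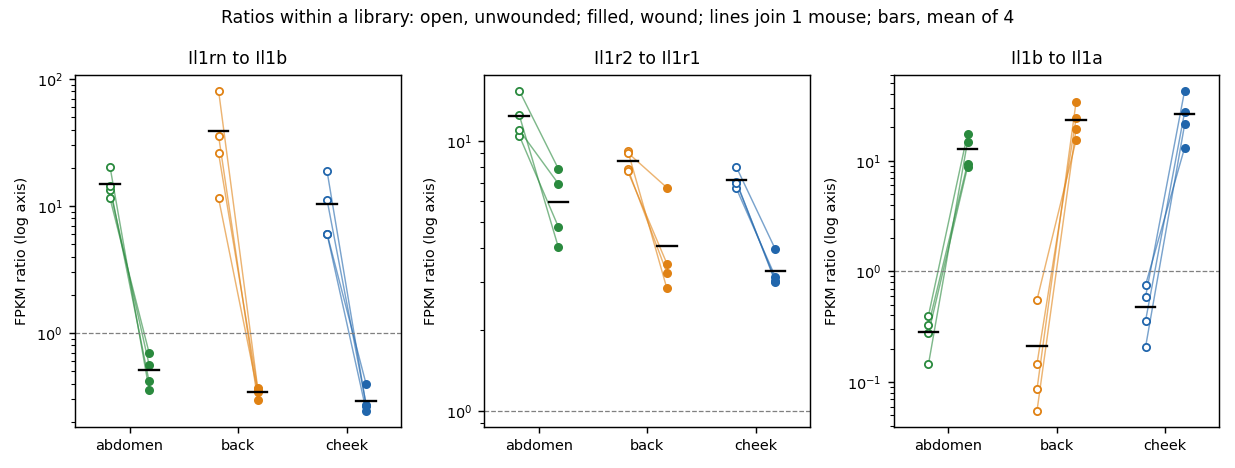
Ratios of FPKM within a library for Il1rn to Il1b, Il1r2 to Il1r1 and Il1b to Il1a, on log axes, with open points for unwounded skin, filled points for wounds, lines joining the libraries of 1 mouse and bars for the mean of 4. The dashed line is a ratio of 1. Il1rn to Il1b crosses it downwards and Il1b to Il1a upwards in each of the 12 mice, and Il1r2 to Il1r1 falls but stays above it.

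Il1r2, the decoy receptor that binds IL-1 without signalling, was the member that fell. In the abdomen it read 193, 179, 191 and 148 FPKM in unwounded skin and 78.6, 83.4, 101 and 94.9 FPKM in the wounds of mice 1 to 4. In the back it read 86.6, 95.7, 94.0 and 104 FPKM before and 67.3, 54.6, 65.2 and 96.2 FPKM after wounding. In the cheek the values were 117, 94.98, 89.97 and 88.2 FPKM before and 75.6, 56.4, 74.6 and 75.5 FPKM after. It was lower in the wound of 12 of 12 mice, and the unwounded abdomen stood above all other groups without overlap. The log2 fold change was -0.99 ± 0.13 in the abdomen, -0.45 ± 0.13 in the back and -0.47 ± 0.13 in the cheek (SE), with limma adjusted p = 0.00017, 0.013 and 0.013, so that the abdomen alone passed 0.001. That call was lost without abdomen mouse 1, 2 or 3 (log2 fold changes of -0.88, -0.95 and -1.01, adjusted p = 0.00149, 0.00119 and 0.00130).

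Il1r2 also set the unwounded sites apart. Compared with the abdomen, its unwounded level was lower by a log2 difference of -0.90 (95% interval -1.15 to -0.64) in the back and -0.86 (-1.12 to -0.61) in the cheek, with limma adjusted p = 0.0030 and 0.0036 and 2.67% and 2.57% of all tested genes called at 0.05. These 2 comparisons share the abdomen libraries. Il1r2 was the only member called in either, and 0 members were called between unwounded back and cheek (limma, 3 at an unadjusted p under 0.05, where 1.05% of all genes were called and 21.6% had such a p). With median-ratio scaling of the libraries, which moved the median of all genes from -0.12 to 0.0041 for back against abdomen and from 0.14 to 0.010 for cheek against back, Il1r2 was still called, and over all alternatives with the mice complete the differences were -0.90 to -0.76 and -0.89 to -0.86. The summed level of 6 sebaceous gland markers followed the same order, with 1491 to 1831 FPKM in unwounded abdomen, 863 to 1108 in back and 947 to 1352 in cheek, and in abdomen wounds, where Il1r2 was lower too, it was 1049 to 1268 FPKM. The summed level of 13 neutrophil markers also set the unwounded abdomen apart, with 35.7 to 54.0 FPKM against 21.7 to 28.4 in back and 23.1 to 32.1 in cheek. In unwounded skin Mpo was the most abundant gene of this list, and Ly6g was at 0 in all unwounded abdomen libraries, so the sum is not a count of neutrophils. The summed level of 6 skeletal muscle markers was uneven in unwounded abdomen, at 14302, 465, 2507 and 13379 FPKM in mice 1 to 4. It was 12605 to 19661 FPKM in back and 10583 to 21036 in cheek. Abdomen mice 1 and 4 lay within these ranges, and mice 2 and 3 lay below them. The part of these tissues and cells in the Il1r2 differences was not tested. In the wounds Il1r2 no longer passed between any sites (back against abdomen -0.36, limma adjusted p = 0.28, and cheek against abdomen -0.34, adjusted p = 0.16). The cheek wounds lay below the abdomen wounds without overlap, at 56.4 to 75.6 against 78.6 to 101 FPKM, while back and abdomen wounds overlapped. The share of all genes that separate in this way was not counted. Of all tested genes, 31.6% had an unadjusted limma p under 0.05 between cheek and abdomen wounds.

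Il1r1, the signalling receptor, rose in the back and cheek. In the abdomen its level was 15.5, 17.1, 12.4 and 13.5 FPKM in unwounded skin and 19.4, 17.3, 12.8 and 13.7 FPKM in the wounds. In the back it was 10.99, 10.4, 12.2 and 11.5 FPKM before and 20.7, 19.2, 18.6 and 14.3 FPKM after wounding. In the cheek it was 14.6, 13.4, 13.5 and 12.6 FPKM before and 19.1, 18.8, 23.8 and 24.9 FPKM after. The groups overlapped in the abdomen and were apart in the back and cheek. The log2 fold change was 0.10 ± 0.11, 0.66 ± 0.11 and 0.65 ± 0.11 (SE), with limma adjusted p = 0.53 in the abdomen, 0.00055 in the back and 0.00087 in the cheek. Both calls were lost under median-ratio scaling (adjusted p = 0.00258 and 0.00263) and quantile normalization (adjusted p = 0.00395 and 0.00248). It was lost in the cheek without the filter or without trend and robust moderation too (adjusted p = 0.00150 and 0.00145). Leaving out single mice removed the cheek call in 10 fits, those without abdomen mouse 2, 3 or 4, back mouse 1, 2 or 3 or any cheek mouse. The back call was lost without abdomen mouse 3 and without back mouse 1, 2 or 3, with adjusted p up to 0.00524. A list of 10 housekeeping genes had median log2 fold changes of 0.26, 0.43 and 0.26 at the 3 sites, with 0, 3 and 0 called.

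With the decoy lower and the signalling receptor higher, the ratio of Il1r2 to Il1r1 fell from between 6.67 and 15.4 in unwounded skin (median 8.52) to between 2.84 and 7.88 in wounds (median 3.74). With 0.5 FPKM added to both genes, the mean within-mouse change of its log2 was -1.10 ± 0.35 (SD, n = 12), downward in 12 of 12 mice (exact two-sided permutation, p = 0.000488). It was -1.09, -1.11 and -1.12 in abdomen, back and cheek. The 2 genes had unequal parts in it by site. In the abdomen the log2 fold change was -0.99 for Il1r2 and only 0.10 for Il1r1. In the back and cheek it was -0.45 and -0.47 for Il1r2 and 0.66 and 0.65 for Il1r1. Decoy RNA remained above receptor RNA in every library. Il1rap, the accessory chain that both receptors recruit, was higher in the wound of 7 of 12 mice. Its log2 fold changes were -0.30, 0.05 and 0.47 in abdomen, back and cheek (limma adjusted p = 0.19, 0.84 and 0.045), none under 0.001.

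Il33, an alarmin of keratinocytes, fibroblasts and endothelial cells, showed the second largest rise among the members. In the abdomen it read 20.4, 19.98, 20.6 and 17.8 FPKM in unwounded skin and 199.7, 112, 75.1 and 41.5 FPKM in the wounds of mice 1 to 4. In the back it read 19.4, 19.3, 22.8 and 20.7 FPKM before and 161, 159, 164 and 85.9 FPKM after wounding. In the cheek it read 22.9, 13.3, 15.4 and 9.93 FPKM before and 79.1, 72.2, 94.5 and 93.0 FPKM after. Wounds of abdomen mice covered a wide range, from 41.5 to 199.7 FPKM, while their unwounded skin was nearly even. On the log2 scale the wound effect was 2.19 ± 0.30 in the abdomen, 2.72 ± 0.30 in the back and 2.48 ± 0.30 in the cheek (SE), with limma adjusted p = 0.00044, 4.7e-05 and 0.00013. Without abdomen mouse 1, 2 or 3 the abdomen effect was 1.83, 2.10 and 2.31 and its call was lost (adjusted p = 0.00184, 0.00252 and 0.00207), and the cheek call was lost without cheek mouse 2 or 3 (adjusted p = 0.00127 and 0.00120).

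The receptor for IL-33, Il1rl1, was higher in the wound of 12 of 12 mice. Its unwounded level was between 0.55 and 2.05 FPKM in all 12 libraries. The wounds had 4.55, 2.67, 2.54 and 3.65 FPKM in abdomen mice 1 to 4, 10.1, 7.36, 7.37 and 4.64 FPKM in back mice and 5.90, 8.53, 14.2 and 12.2 FPKM in cheek mice. Every wound lay above every unwounded library, with abdomen wounds lowest. Its log2 fold change was 1.08 in the abdomen, 2.40 in the back and 2.56 in the cheek (limma adjusted p = 0.014, 5.4e-05 and 4.5e-05). Cheek wounds exceeded abdomen wounds by a log2 difference of 1.43 (95% interval 0.82 to 2.05, limma adjusted p = 0.015), where 10.8% of all tested genes were called. The test of a difference between the 3 wound effects did not pass over all genes (limma F test, unadjusted p = 0.0063, adjusted p = 0.24).

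Il18 was high in all libraries and not called at any site. Its unwounded level ranged from 40.5 to 58.5 FPKM in the abdomen, 29.3 to 45.8 in the back and 31.9 to 41.7 in the cheek, and its wound level from 39.0 to 62.7 FPKM over all sites. It was higher in the wound of 9 of 12 mice, with log2 fold changes of 0.11 ± 0.15, 0.52 ± 0.15 and 0.33 ± 0.15 (SE, limma adjusted p = 0.62, 0.013 and 0.10). Without back mouse 1, which went from 45.8 to 41.3 FPKM, the back effect was 0.75 with a limma adjusted p of 0.00099. By contrast Il18bp, the secreted protein that neutralises IL-18, had log2 fold changes of 1.92, 1.93 and 1.43 (limma adjusted p = 0.00080, 0.00037 and 0.0033). Il18bp was 3.81 ± 1.79 FPKM (SD, n = 12) in unwounded skin and 14.6 ± 8.15 FPKM in wounds, and higher in the wound of 12 of 12 mice.

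The IL-36 cytokines act through the receptor encoded by Il1rl2 and are epidermal products. Il36g was the most abundant of them. In the abdomen it read 36.2, 44.0, 42.7 and 37.1 FPKM in unwounded skin and 85.1, 65.8, 68.7 and 49.2 FPKM in the wounds. In the back it read 33.5, 26.4, 32.8 and 28.0 FPKM before and 65.1, 76.2, 62.7 and 58.1 FPKM after wounding. In the cheek it read 21.1, 29.5, 35.01 and 23.0 FPKM before and 58.8, 75.2, 68.3 and 58.3 FPKM after. Wounds of the 3 sites reached nearly the same level, from starting levels that were highest in the abdomen. Its wound effect on the log2 scale was 0.72 ± 0.13 in the abdomen, 1.11 ± 0.13 in the back and 1.27 ± 0.13 in the cheek (SE), with limma adjusted p = 0.0017, 3.8e-05 and 1.8e-05. Its unwounded level in the cheek was below that in the abdomen, a log2 difference of -0.57 (95% interval -0.90 to -0.25) that missed the threshold (limma adjusted p = 0.062) and passed it without cheek mouse 3.

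Il36b was higher in the wound of 12 of 12 mice and Il36a in that of 11 of 12. Il36b lay between 7.88 and 25.8 FPKM in unwounded skin and between 17.2 and 39.3 FPKM in wounds, with back mouse 1 nearly level (25.8 and 26.5 FPKM). Its log2 fold change was 1.3 ± 0.21, 0.96 ± 0.21 and 1.36 ± 0.21 (SE) in abdomen, back and cheek, with limma adjusted p = 0.0011, 0.0034 and 0.00052. Il36a was at 8.38, 21.1, 8.18 and 4.65 FPKM in unwounded abdomen and 18.9, 16.5, 17.9 and 9.29 FPKM in abdomen wounds. In the cheek it was at 2.28, 4.74, 7.64 and 5.36 FPKM before and 11.6, 21.4, 24.2 and 21.5 FPKM after wounding. The unwounded library of abdomen mouse 2 was the single one that exceeded its own wound. The log2 fold change of Il36a was 0.70 ± 0.27, 1.22 ± 0.27 and 1.92 ± 0.27 (SE), with limma adjusted p = 0.063, 0.0032 and 0.00025. In the cheek the call of Il36a was lost without any 1 of the 4 cheek mice (adjusted p up to 0.00246), and that of Il36b without any 1 of them or abdomen mouse 3 (adjusted p up to 0.00457).

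The remaining ligands of the family had effects of opposite sign. Il36rn, the IL-36 receptor antagonist, was at 28.4 to 58.9 FPKM in unwounded skin and 68.3 to 133 FPKM in wounds, higher in 12 of 12 mice without overlap, and its log2 fold changes were 1.16, 1.4 and 1.38, past 0.001 at each site. Il1f10, which encodes IL-38, was lower in the wound of 11 of 12 mice. It was between 9.60 and 24.2 FPKM in unwounded skin and between 1.06 and 13.6 FPKM in wounds, with log2 fold changes of -0.78, -1.68 and -2.06 (limma adjusted p = 0.14, 0.0045 and 0.0019), none under 0.001. The receptor Il1rl2 had a mean of 23.9 FPKM in unwounded skin and 24.3 FPKM in wounds. Sigirr, a receptor of the family that dampens signalling, had log2 fold changes of 0.05, 0.40 and 0.02, none past 0.001, and Il1rapl1 was at 0.02 FPKM or less in every library and was not tested.

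Whether the wound response of the family differed between sites was tested directly. By the F test of the 3 wound effects 0 of 10 members passed over all genes (limma, lowest adjusted p 0.238, for Il1r1), where 0.0208% of all tested genes were called. At an unadjusted p under 0.05 there were 5 members (Il1r1, Il1rn, Il1r2, Il36a and Il36g), where 12.9% of all tested genes were below it. Cheek effects exceeded abdomen effects by 0.71 (95% interval 0.26 to 1.16) for Il1rn, 0.55 (0.20 to 0.90) for Il1r1, 0.55 (0.15 to 0.95) for Il36g and 1.23 (0.41 to 2.05) for Il36a. Il1r2, which fell at each site, fell less in the cheek than in the abdomen, a difference of 0.52 (0.13 to 0.91). All are on the log2 scale, and none passed (limma adjusted p between 0.29 and 0.34). Back effects exceeded abdomen effects by 1.60 (0.35 to 2.86) for Il1b and 0.56 (0.21 to 0.91) for Il1r1, and Il1r2 fell less in the back by 0.54 (0.14 to 0.93). Again none passed (limma adjusted p = 0.23, 0.16 and 0.21). For Il33 the difference of cheek and abdomen effects was 0.29 (-0.65 to 1.23), an interval wide enough to hold effects of either sign. Between wounds of different sites 0 members passed at 0.05 in any of the 3 comparisons (limma, 2 members at an unadjusted p under 0.05 for back against abdomen, 2 for cheek against abdomen and 0 for cheek against back), where 1.27%, 10.8% and 2.5% of all tested genes were called and 16.5%, 31.6% and 26.1% had an unadjusted p under 0.05. The 3 comparisons share their wound libraries. Without abdomen mouse 1, Il1b and Il1r1 were called higher in cheek wounds than in abdomen wounds.

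Genes that act before and after the receptors were counted from lists, which were chosen with earlier results of these data known. The counts are therefore a description. Of 15 tested genes of inflammasomes and activating proteases, 2 rose in the abdomen, 6 in the back and 5 in the cheek, and 0 fell, where 3.92%, 10% and 6.5% of all tested genes rose. Nlrp3, the sensor of the best known inflammasome, went from a mean of 0.33 ± 0.14 FPKM to 10.98 ± 4.88 FPKM (SD, n = 12), with log2 fold changes of 3.07, 3.78 and 4.19 (limma adjusted p = 3.7e-06, 3.5e-07 and 1.6e-07). Mefv, which encodes the sensor pyrin, had log2 fold changes of 1.21, 2.05 and 1.91 (limma adjusted p = 0.00093, 8.1e-06 and 1.9e-05). Casp1, the protease that cuts IL-1β and IL-18, was at 21.4 FPKM in unwounded skin and 25.0 FPKM in wounds, with log2 fold changes of 0.02, 0.51 and 0.15 and no call. Gsdmd, whose product forms the pores through which IL-1β leaves cells, had log2 fold changes of 0.93, 1.29 and 1.08, past 0.001 in the back and cheek.

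Downstream of the receptors, 2, 4 and 4 of 17 signalling genes rose in abdomen, back and cheek and 0 fell, where 3.92%, 10% and 6.5% of all tested genes rose. The median log2 fold change of these 17 was 0.04, 0.16 and 0.16. Myd88, the adaptor of the whole receptor family, was at 25.8 ± 3.08 FPKM in unwounded skin and 49.1 ± 5.75 FPKM in wounds (SD, n = 12). Its log2 fold changes were 0.86, 1.06 and 0.84 (limma adjusted p = 9.9e-05, 8.3e-06 and 6.9e-05). Irak4, the kinase that MyD88 recruits, had smaller log2 fold changes of 0.41, 0.81 and 0.77 (limma adjusted p = 0.018, 0.00018 and 0.00037).

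Of 20 genes commonly induced through this pathway, 9 rose in the abdomen, 15 in the back and 13 in the cheek, and 0 fell, against the same shares of all genes. Their median log2 fold change was 0.83, 1.57 and 1.68, against all-gene medians of -0.01, 0.07 and 0.01. Cxcl2, a chemokine that attracts neutrophils, was between 0 and 0.35 FPKM in unwounded skin and between 58.5 and 370 FPKM in wounds. Saa3, an acute phase protein, went from a range of 0.81 to 13.1 FPKM to one of 272 to 1808 FPKM, with log2 fold changes of 8.01, 8.08 and 8.13 (limma adjusted p = 8.3e-06, 2.7e-06 and 3.3e-06). Ccl20, a chemokine of the same list, was not called at any site. These genes answer to many signals besides IL-1, and the share of IL-1 in their change was not tested. Of 7 further receptors and binding proteins tested, 1, 3 and 2 rose and 0 fell, and of the other 2 ligands 1 rose at each site.

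**Figure D4:**
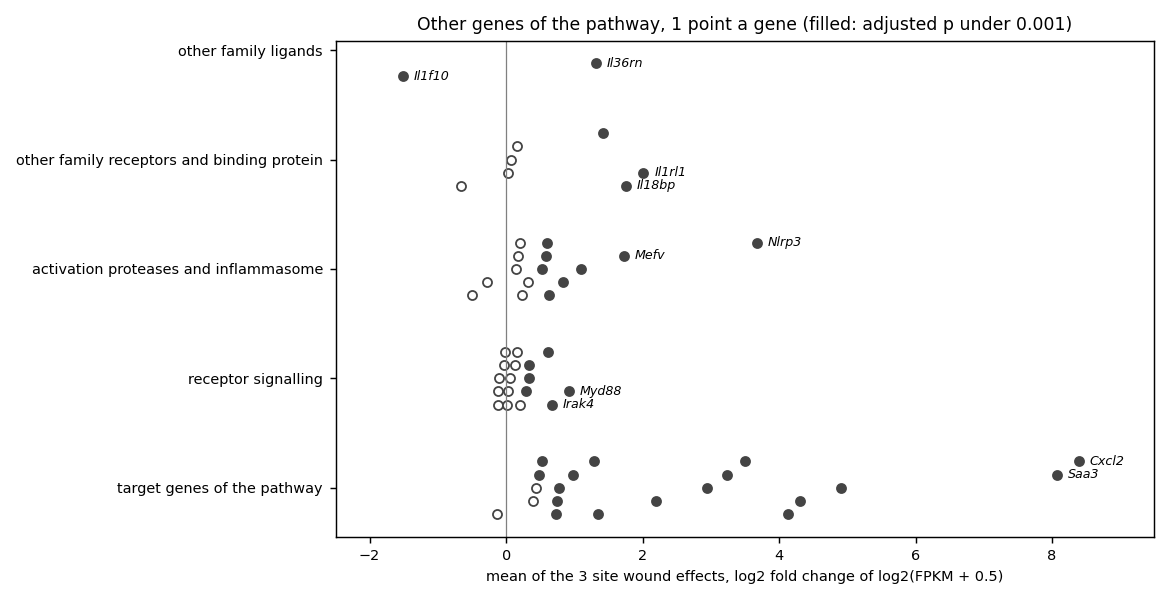
Mean of the 3 site wound effects for each tested gene of the lists around the family, as a log2 fold change of log2(FPKM + 0.5), 1 point a gene, filled where the limma adjusted p was under 0.001. Among target genes Cxcl2 and Saa3 lie above 8, Nlrp3 leads the inflammasome list at 3.68, and the signalling genes lie close to 0 with Myd88 highest at 0.92.

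Markers of the cells that make and answer to these cytokines moved as well. The punches held skin by their markers, with 6 basal keratinocyte markers summing to between 3666 and 10920.1 FPKM and 6 fibroblast markers to between 5936 and 23060 FPKM per library. Of 12 tested neutrophil markers, 6 rose in the abdomen, 7 in the back and 7 in the cheek, where 3.92%, 10% and 6.5% of all tested genes rose. Mpo, the most abundant of them in unwounded skin with a mean of 18.2 FPKM, had log2 fold changes of -0.96, -0.74 and -1.70 (limma adjusted p = 0.026, 0.056 and 0.0010), and Camp of -0.36, -0.50 and 0.28, none of them past 0.001. The summed level of the list, over 13 genes, was 35.7 to 54.0 FPKM in unwounded abdomen, 21.7 to 28.4 in back and 23.1 to 32.1 in cheek, and 84.2 to 142, 143 to 186 and 111 to 226 FPKM in the wounds. The defining marker Ly6g was listed at 0 in all unwounded abdomen and back libraries, and Ngp in all unwounded cheek libraries. Of 11 macrophage and monocyte markers 5, 8 and 8 rose, and their sum went from between 490 and 1072 FPKM to between 1421 and 2654 FPKM. Both sums were higher in the wounds of every site, as Il1b and Il1rn were, and the part of these cells in their change was not tested.

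Epidermal markers differed among themselves. The wound-edge keratins Krt6a, Krt6b, Krt16 and Krt17 summed to between 387 and 1285 FPKM in unwounded skin and between 2107 and 14682 FPKM in wounds, and 3, 4 and 3 of them rose in abdomen, back and cheek. Of 6 basal keratinocyte markers 1 rose at each site (Krt14) and 1 fell in the abdomen (Krt15). Of 5 tested markers of differentiated keratinocytes 1 rose at each site, Krt1. The median log2 fold change in abdomen, back and cheek was 5.29, 6.50 and 5.93 for the wound-edge keratins, -0.04, 0.0049 and 0.19 for the basal list and 0.20, 0.02 and 0.37 for the differentiated list. The wound-edge keratin sums were higher in the wounds of every site, as the mean levels of Il33, Il36a, Il36b and Il36g were. Single wounds did not all follow the same order, and the part of these keratinocytes in the values was not tested. T cell markers summed to between 17.2 and 50.3 FPKM in unwounded skin and between 21.99 and 36.6 FPKM in wounds. Among the remaining lists, 2, 4 and 3 of 5 endothelial markers and 1, 2 and 1 of 6 dendritic and Langerhans cell markers rose at the 3 sites, where 3.92%, 10% and 6.5% of all tested genes rose. For mast cell, sebaceous gland, fibroblast and adipocyte markers, 0 rose except 1 sebaceous gland marker in the back, and those that fell were 1 fibroblast and 2 adipocyte markers, again in the back. None of the 6 skeletal muscle markers passed 0.001, but their median log2 fold change was -0.66, -2.23 and -1.79. Their summed level in the wounds was 1558 to 4835 FPKM in the abdomen, 2946 to 4113 in the back and 4336 to 6051 in the cheek, below every unwounded library of the same site in the back and cheek. The part of muscle RNA in the values of the family was not tested. Of 10 housekeeping genes 0, 3 and 0 rose and 0 fell, with median log2 fold changes of 0.26, 0.43 and 0.26, and the largest mean changes were those of Actb (0.54, 0.88 and 0.66) and Pgk1 (0.66, 0.86 and 0.39).

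**Figure D5:**
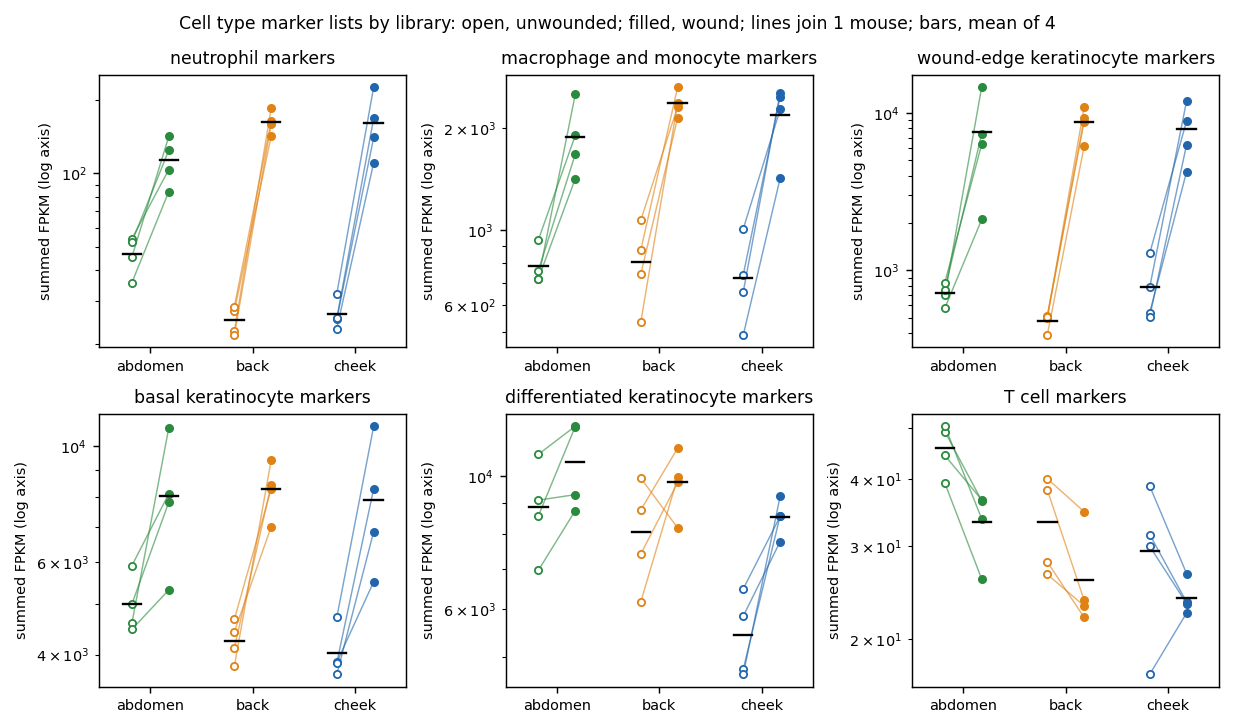
Summed FPKM of 6 marker lists in every library on log axes, with open points for unwounded skin, filled points for wounds, lines joining the libraries of 1 mouse and bars for the mean of 4. Neutrophil sums are 54.0 FPKM or less in unwounded skin and 84.2 FPKM or more in wounds, and the wound-edge keratin sums separate in the same way.

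Some genes followed single members closely over the 24 libraries, which share mice, sites and the wound contrast, so that the correlations are given as a description. Il1b was most like Clec4e, a receptor of macrophages and neutrophils (r = 0.988), and Osm, which encodes oncostatin M (r = 0.987). Il1rn was most like Cd14 (r = 0.968) and Plaur (r = 0.964), and Il33 like Il4ra (r = 0.977) and Tmprss11b (r = 0.971). The receptor Il1r1 was closest to Osmr, the oncostatin M receptor (r = 0.948), and to Has2, a hyaluronan synthase (r = 0.938). Il1r2, the falling member, was closest to the smooth muscle myosin gene Myh11 (r = 0.904) and to Oat (r = 0.894). Il36g was closest to Cttn (r = 0.952) and Pmaip1 (r = 0.938), Il36b to Slc6a20a (r = 0.926) and Furin (r = 0.912), and Il36a to Prss27 (r = 0.896) and Trex2 (r = 0.878). The members with small wound effects had looser neighbours, Htatip2 (r = 0.854) and Oser1 (r = 0.852) for Il18 and Ide (r = 0.813) and Il36b (r = 0.807) for Il1a. All r are Pearson correlations of log2(FPKM + 0.5) across libraries.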

How the data were processed

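RNA was sequenced from 24 libraries, unwounded skin and day 3 wounds of 12 mice, 4 mice at each of 3 sites, and the labels give each library its site, state and mouse. Replicates are separate mice. A sequencing company computed the FPKM values on behalf of the authors, who deposited them with 2 decimals. Per the study's methods and the submitters' notes, the reads passed a quality filter and were aligned to GRCm38 with HISAT2 and Bowtie2 (2.2.5), and RSEM (1.2.12) gave 1 value per gene and library. The authors also deposited log2 fold changes and adjusted p-values of their own comparisons from DESeq2, which were not used here. Columns of samples left unused numbered 0.

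The members and gene lists were chosen with earlier results of these data known. FPKM values carry no counts, so depth and counting error are unknown. FPKM sums were 490830 to 608888 per library, with 15781 to 16577 genes above 0. Depth relative to the other libraries, read from the lowest values of 18 genes, was 0.923 to 1.07, a rough estimate.

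The model was limma 3.58.1 (statmod 1.5.0, R 4.3.3), on log2(FPKM + 0.5), with a trend and robust moderation, for genes at 0.5 FPKM or more in at least 4 libraries of the fit. For wound effects all 24 libraries were fitted with mouse as a block (threshold 0.001). Sites were compared within the 12 unwounded and the 12 wound libraries (threshold 0.05), which left 13956 and 14023 genes. P-values were Benjamini-Hochberg adjusted over all tested genes. Pairing rests on both libraries coming from the same mouse. Deviations from the group means correlated within a mouse with a mean r of 0.322, 0.348 and 0.281 in abdomen, back and cheek (lowest -0.030), against -0.108, -0.116 and -0.0958 between mice. Subtracting the group means ties the values between mice to those within a mouse, so they are no separate evidence for the pairing. Changes of ratios were taken on the log2 scale with 0.5 FPKM added to both genes and tested by exact permutation. In a test on simulated data 200 genes were given a difference of 1 on the log2 scale, and of these the wound effect in abdomen recovered 136 (68%) with 0 other calls, and the comparison of unwounded back with abdomen 162 (81%) with 9.

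Genes named were all members, the 2 genes most correlated with each, the other ligands and receptors of the family, and from each further pathway list and the housekeeping genes the 2 with the largest absolute mean wound log2 fold change. Casp1, Gsdmd, Ccl20, Ly6g, Ngp, Mpo, Camp and the keratins were named after their values were seen. Gene positions and promoters come from RefSeq, exon overlaps from GENCODE vM21. The alternatives were other pseudocounts, filters, scalings, moderation and model terms, each mouse left out in turn, and the threshold of 0.05.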

Additional observations from a re-analysis of the deposited data

Results flagged for a closer look

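In 3 of the 60 groups of 4 libraries examined (10 members in 6 groups), a single mouse lay far from the other 3 by Dixon's criterion, and chance alone flags about 1 group in 20. Il1rn in back wounds was low in mouse 2, at 49.59 FPKM beside 72.96, 72.64 and 71.23 FPKM. Il1r2 in cheek wounds was low in mouse 2, at 56.43 FPKM beside 75.55, 74.55 and 75.52 FPKM. Il33 in back wounds was low in mouse 4, at 85.9 FPKM beside 160.62, 159.04 and 163.55 FPKM. In the fits that left out 1 mouse, the wound effect of Il1rn in the back stayed between 1.27 and 1.42, that of Il1r2 in the cheek between -0.55 and -0.37, and that of Il33 in the back between 2.62 and 2.95, all on the log2 scale.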

How the results depend on the processing

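No result changed direction under the alternatives run. Members called by wounding numbered 0 in the abdomen, 4 in the back and 4 in the cheek when each site was fitted alone, compared with 4, 5 and 7. At a threshold of 0.05 they numbered 6, 9 and 9. The shares of all tested genes called under the alternatives of this section are not given, so its counts are not set against all genes. In unwounded skin, cheek against abdomen gave 2 members (Il1r2 and Il36g) with all 24 libraries as 6 groups, compared with 1, and cheek against abdomen wounds gave 1 (Il1b) with quantile normalization, compared with 0. With 1 mouse left out, the counts ranged from 1 to 5 in the abdomen, 4 to 7 in the back and 3 to 7 in the cheek. They ranged from 1 to 2 for unwounded abdomen against cheek, 0 to 1 for unwounded back against cheek (1, Il33, without cheek mouse 1) and 0 to 2 for abdomen against cheek wounds (2 without abdomen mouse 1). For single members, 350 of 368 alternative values with the mice complete kept their side of the threshold, 17 lost the call and 1 gained it. With 1 mouse left out, 460 of 504 values kept their side, 36 lost the call and 8 gained it. The causes were not tested, except that fits of a site alone and fits with a mouse left out rest on fewer libraries. Without the mouse pairing (no replicate block) 3, 5 and 6 members were called in abdomen, back and cheek, with Il1rn in the abdomen (adjusted p = 0.00113) and Il36a in the cheek (adjusted p = 0.00107) lost. A block by the mouse number that sites share, which marks different animals, changed no call between sites. Without counts, a difference of low values such as unwounded Il1b cannot be given a counting error.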

Other observations

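The receptor chains of IL-18 had effects of opposite sign. Il18rap was between 0.10 and 1.03 FPKM in unwounded skin and between 0.99 and 3.6 FPKM in wounds, higher in 12 of 12 mice, with log2 fold changes of 0.91, 1.68 and 1.68 in abdomen, back and cheek (limma adjusted p = 0.0066, 5.9e-05 and 8.3e-05). Il18r1, the ligand-binding chain, was lower in the wound of 11 of 12 mice, with a mean of 4.91 FPKM in unwounded skin and 2.82 FPKM in wounds and log2 fold changes of -0.87, -0.89 and -0.22 (limma adjusted p = 0.019, 0.012 and 0.53). Il18r1 passed 0.001 at no site.

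Over the 12 within-mouse differences between wound and unwounded skin, which no longer hold the common step from unwounded skin to wound, the closest genes were others than over the libraries. The wound change of Il1r1 was most like those of Snx14 (r = 0.942) and Il1rl1 (r = 0.938), that of Il33 like Pld1 (r = 0.934) and Hif1a (r = 0.897), and that of Il1rn like Il23a (r = 0.916) and Zfp263 (r = 0.907). Each is the highest among all tested genes over 12 mice of 3 sites, and the values are given as a description.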
